A study of Mus musculus with 8 samples.

Results

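A set of 10 enzymes and lipid-handling proteins that build triglyceride (Gpam, Gpat3, Agpat2, Lpin1, Lpin2, Lpin3, Dgat1, Dgat2, Mogat1 and Pnpla3) were examined in gonadal white fat of mice lacking the telomere-binding protein RAP1. The members were chosen by gene, and every non-control probe whose RefSeq transcript belonged to one of them was taken, which gave 12 probes for 10 genes among 55681 probes and 19752 named genes on the array. All 12 member probes passed the filter on dim probes and were among the 33982 probes tested. Every array read each member above background except for the dimmer probe of Lpin1, which was well above background on 3 of the 4 Rap1-/- arrays and on all WT arrays.

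The fat came from 4 Rap1-/- mice and 4 wild-type (WT) mice, with 1 one-colour Agilent array per animal, the labels naming the 4 of each genotype as biological replicates. All were 10 weeks old, on a mixed C57BL6 (90%) and 129SV (10%) background, and are described as females at an age that precedes the obesity of the knockout. Rap1-/- mice carried a constitutive whole-body deletion, made by crossing floxed Rap1 mice with mice expressing cre from the adenovirus EIIa promoter, so that RAP1 was absent from every cell type of the fat pad and from all other organs. The deleted gene Terf2ip, by probe A_52_P381806, was not well above background in any knockout, where WT fat gave 0.06, 0.26, 0.49 and 0.23, while its other probe, A_55_P2094079, was 5.22-fold higher in Rap1-/- (limma adjusted p = 4.94e-05). Signal is given as log2 intensity relative to the 75th percentile of the array it was read from, so that 0 is the level of that percentile, and the levels of different probes are not comparable with each other.

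Triglyceride is assembled on a glycerol backbone in steps. In the glycerol phosphate pathway, an acyltransferase joins a fatty acid to glycerol 3-phosphate, an AGPAT enzyme adds another to give phosphatidic acid, a lipin removes the phosphate to give diacylglycerol, and a DGAT enzyme adds the last fatty acid. White adipocytes store energy in this way, and loss of AGPAT2 in humans or of lipin 1 in mice leaves little fat tissue.

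Upstream sequence is shown for Gpat3, among the members with the smallest p, for Lpin1, the lipin with the largest difference, and for Agpat2 and Gpam, whose windows held the hexamer TTAGGG, the unit of the telomeric repeat to which shelterin binds and which RAP1 has been linked to along chromosome arms. RefSeq windows on GRCm38.p6, holding the 250 bases before a start site, were at hand for 8 of the 10 members (12 windows), the others being Dgat1 and Dgat2. Each sequence runs 5′ to 3′ on the strand of the gene, and capitals mark a match on either strand to the hexamer TTAGGG, to the E-box CACGTG, to the box CCAAT or to the half-site AGGTCA.
Agpat2 (chr2:26604418-26604667, minus strand): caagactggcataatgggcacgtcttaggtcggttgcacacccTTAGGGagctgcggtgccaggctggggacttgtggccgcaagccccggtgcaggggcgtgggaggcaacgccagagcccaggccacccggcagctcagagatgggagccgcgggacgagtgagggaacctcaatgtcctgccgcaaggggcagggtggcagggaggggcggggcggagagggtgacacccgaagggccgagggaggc
Gpam (chr19:55127239-55127488, minus strand): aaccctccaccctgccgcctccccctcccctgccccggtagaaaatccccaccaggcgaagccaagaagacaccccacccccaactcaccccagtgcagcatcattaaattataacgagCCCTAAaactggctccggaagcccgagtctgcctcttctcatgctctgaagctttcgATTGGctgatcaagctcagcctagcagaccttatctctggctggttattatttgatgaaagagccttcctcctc
Gpat3 (chr5:100845979-100846228, plus strand): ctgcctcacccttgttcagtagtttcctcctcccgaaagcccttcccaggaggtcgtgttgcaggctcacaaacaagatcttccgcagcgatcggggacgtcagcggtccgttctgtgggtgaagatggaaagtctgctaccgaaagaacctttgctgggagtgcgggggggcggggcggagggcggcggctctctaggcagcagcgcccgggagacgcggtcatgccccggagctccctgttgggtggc
Lpin1 (chr12:16610967-16611216, minus strand): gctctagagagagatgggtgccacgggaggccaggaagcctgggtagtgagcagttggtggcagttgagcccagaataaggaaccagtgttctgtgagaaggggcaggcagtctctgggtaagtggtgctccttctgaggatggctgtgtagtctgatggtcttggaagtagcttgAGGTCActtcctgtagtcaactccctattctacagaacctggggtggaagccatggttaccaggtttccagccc
In these windows TTAGGG stood 201 bases before the start site of Agpat2 and, as CCCTAA, 125 bases before this start site of Gpam. It was found in 2 of the 12 member windows, against 9.32% of 32851 windows of the same length over all genes. In tandem, TTAGGG was in 0 member windows and in 0.00913% of all. CACGTG, the E-box, was in 1 member window (Lpin2) and in 6.02% of all, while CCAAT was in 3 (Gpam, Lpin2 and Pnpla3) and in 33.8% of all. AGGTCA, a nuclear receptor half-site, was in 2 (Lpin1 and another start of Gpam) and in 14.0% of all, and in tandem with 1 base between, the form that PPAR and RXR bind, it was in 0 member windows and in 0.0335% of all. A tandem match also counts as a match to the single hexamer. These letters are a description of the windows, not binding sites.

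In Rap1-/- fat, Dgat1 and Gpat3 were the members with the smallest p, both lower than in WT, by 28.7% and 33.0%. Neither passed after adjustment over all probes. With the brighter probe standing for Lpin1 and Pnpla3, 8 of 10 members had a lower mean in Rap1-/-, where 59.6% of all probes did. This was 6 of 10 members when arrays were scaled to the E1A spike-in controls (14.9% of all probes) and 7 of 10 with median scaling (44.3%). The members' median log2 difference was -0.26, against -0.04 over all probes tested. Of the 12 member probes, 0 passed an adjusted p of 0.05 (limma, Benjamini-Hochberg over 33982 probes), where 0.00589% of all probes did, namely the 2 probes of Terf2ip, the gene encoding RAP1. At an unadjusted p of 0.05, 2 members were lower and 0 were higher, against 3.2% and 1.63% of all probes.

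The enzymes of the first step join a fatty acid to glycerol 3-phosphate. Gpat3, the isoform of the endoplasmic reticulum that rises as fat cells differentiate (probe A_55_P1968433), read 5.48, 5.75, 6.10 and 5.28 on the 4 Rap1-/- arrays, against 6.39, 6.13, 6.09 and 6.31 on the 4 WT arrays. All 4 Rap1-/- readings lay below the WT mean, and the genotypes overlapped by a single array on each side, since the third Rap1-/- array sat just above the third WT array. Mean signal was 5.65 ± 0.35 on Rap1-/- arrays and 6.23 ± 0.14 on WT arrays (SD, n = 4 each). The log2 difference of -0.58 ± 0.18 (SE, 95% interval -0.98 to -0.17, 1.49-fold lower) passed 0.05 in the two-sided limma test before adjustment but not after it (adjusted p = 0.897). A two-sided exact permutation test over the 70 assignments of arrays gave p = 0.0571. Within the slides the difference was -0.64 and -0.51, and it was -0.35 when scaled to E1A. Gpam, the mitochondrial isoform (probe A_55_P2050778), read -0.31, 0.58, -0.02 and 0.60 in Rap1-/-, against 0.47, 0.18, 0.46 and 0.50 in WT. The Rap1-/- readings fell into a low and a high pair on either side of all 4 WT readings. The difference of -0.18 ± 0.21 (SE, 95% interval -0.68 to 0.31, limma adjusted p = 0.924) was smaller than the spread of the Rap1-/- arrays (0.45, SD, n = 4), and turned to 0.04 when scaled to E1A. It was -0.01 without Rap1-/- replicate 1 and -0.31 without Rap1-/- replicate 2.

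**Figure D1:**
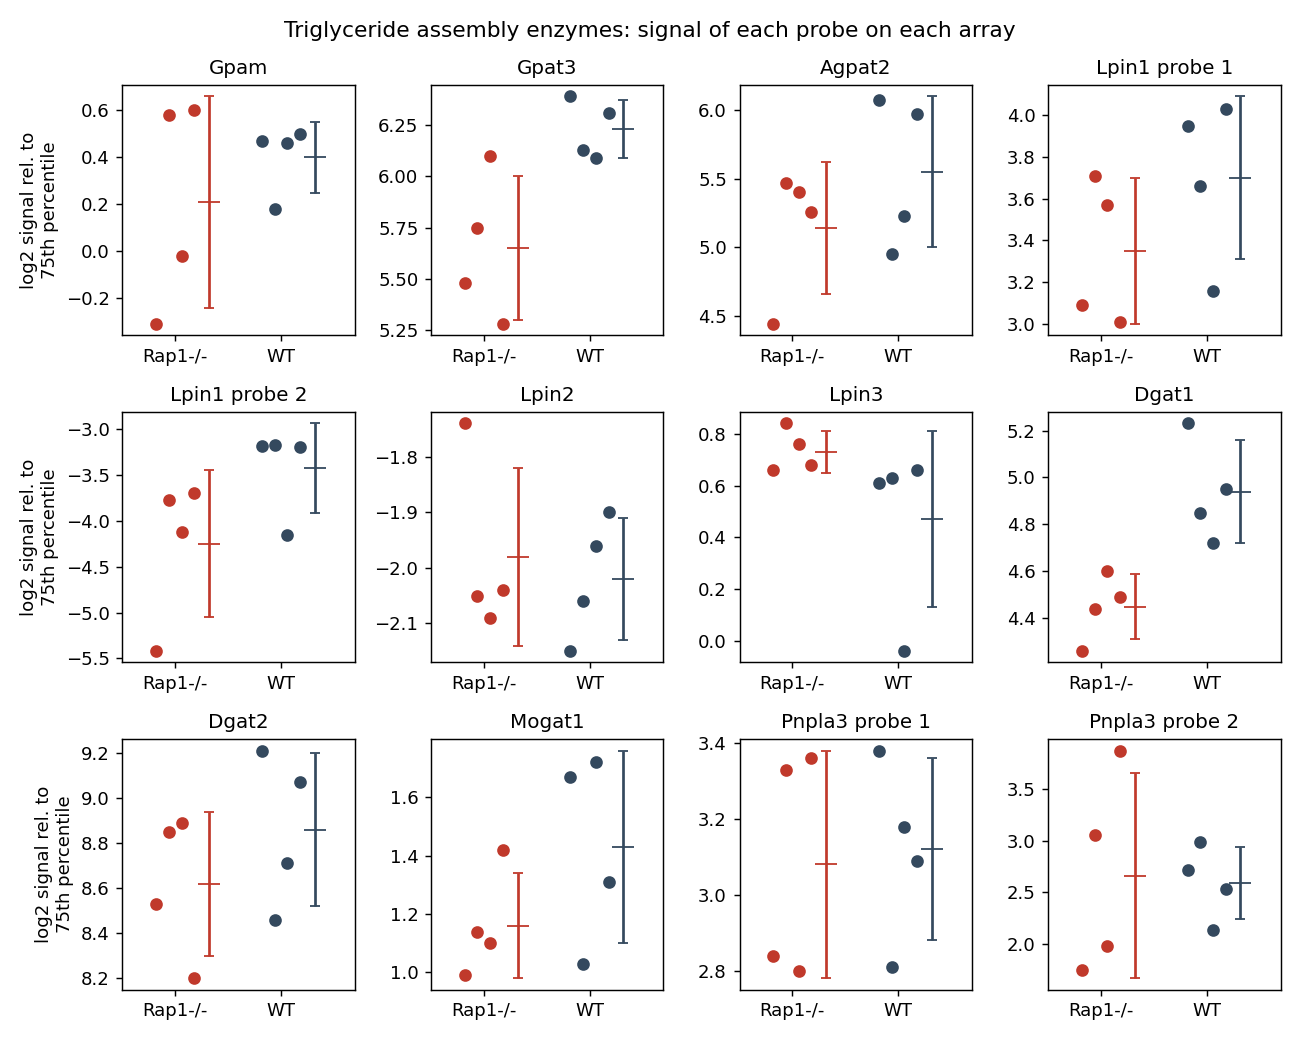
Signal of each member probe on each array (vertical axes, log2 signal with the 75th percentile of that array at 0, and a separate range per panel; red points, the 4 Rap1-/- arrays; dark points, the 4 WT arrays; bars, mean ± SD). Dgat1 is the only panel in which the genotypes do not overlap, with Rap1-/- between 4.26 and 4.60 and WT between 4.72 and 5.23. For Lpin1 and Pnpla3, probe 1 is the brighter.

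Agpat2, which makes phosphatidic acid and whose loss causes congenital lipodystrophy in humans, was read by probe A_55_P2125947 at 4.44, 5.47, 5.40 and 5.26 in Rap1-/-, against 6.07, 4.95, 5.23 and 5.97 in WT. The first Rap1-/- array was the lowest of all 8 and 2 WT arrays were the highest, with the others mixed. The difference was -0.41 ± 0.32 (SE, 95% interval -1.14 to 0.32, limma adjusted p = 0.900). It was -0.18 without the first Rap1-/- array and -0.61 without the second WT array, so that its size rested on single arrays.

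The lipins remove the phosphate from phosphatidic acid, and lipin 1 also acts in the nucleus as a coactivator. The brighter probe of Lpin1 (A_55_P2083481) read 3.09, 3.71, 3.57 and 3.01 in Rap1-/-, against 3.95, 3.66, 3.16 and 4.03 in WT. The first and last Rap1-/- arrays were the lowest, but the third WT array lay among them. The difference was -0.36 ± 0.23 (SE, 95% interval -0.89 to 0.18, limma adjusted p = 0.897). Its dim probe (A_55_P2083474) read -5.42, -3.77, -4.12 and -3.70 in Rap1-/-, against -3.18, -3.17, -4.16 and -3.20 in WT, and the lowest reading, on the first Rap1-/- array, was not well above background. Here the difference was -0.83 ± 0.40 (SE, limma adjusted p = 0.897), but -0.44 without that array, -0.41 with normexp background correction and -0.25 in the deposited values. The last Rap1-/- array, lowest for the bright probe of Lpin1, also had the lowest mean of 12 skeletal muscle markers, a tissue with much lipin 1 (mean -2.28, where the other arrays lay up to 5.60 in Rap1-/- and between 1.61 and 4.28 in WT). Some of these markers were at background there, and the part of muscle RNA in the Lpin1 signal was not tested.

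Lpin2, best known from liver and from a human autoinflammatory disease, read -1.74, -2.05, -2.09 and -2.04 in Rap1-/-, against -2.15, -2.06, -1.96 and -1.90 in WT (probe A_66_P138976). The range over all 8 arrays was narrow, and the highest reading stood alone on the first Rap1-/- array. The difference was 0.04 ± 0.11 (SE, 95% interval -0.21 to 0.29, limma adjusted p = 0.973), the narrowest interval of the 12 probes, and it was -0.14 within the one slide, where the other gave 0.21. Lpin3, the third lipin, read 0.66, 0.84, 0.76 and 0.68 in Rap1-/-, against 0.61, 0.63, -0.04 and 0.66 in WT (probe A_55_P2083464). The lowest Rap1-/- reading and the highest WT reading coincided at 2 decimals, and the third WT array stood far below the rest. The difference of 0.27 ± 0.16 (SE, 95% interval -0.10 to 0.64, limma adjusted p = 0.897) was 0.10 without that array. The same WT array had the lowest mean of 8 mesothelium markers (0.41, against 1.61 to 1.89 in Rap1-/- and up to 1.71 in WT). It also had the lowest mean of 9 fibroblast and preadipocyte markers (3.99, against 4.57 to 4.67 in Rap1-/- and up to 4.78 in WT). The part of RNA from either cell type in the Lpin3 signal was not tested.

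Dgat1 and Dgat2 encode unrelated enzymes that both add the last fatty acid, Dgat1 with a broad substrate range in the endoplasmic reticulum and Dgat2 close to lipid droplets. Dgat1 (probe A_52_P456134) read 4.26, 4.44, 4.60 and 4.49 in Rap1-/-, against 5.23, 4.85, 4.72 and 4.95 in WT. The genotypes did not overlap, with Rap1-/- lower, although the gap between the closest arrays was small and closed with median scaling. It was the 1 member probe of 12 without overlap, where 2.27% of all probes had no overlap with Rap1-/- lower and 0.889% with Rap1-/- higher. Mean signal was 4.45 ± 0.14 on Rap1-/- arrays and 4.94 ± 0.22 on WT arrays (SD, n = 4 each). The log2 difference was -0.49 ± 0.13 (SE, 95% interval -0.79 to -0.19, 1.40-fold lower), which likewise passed 0.05 before adjustment and not after it (two-sided limma test, adjusted p = 0.897). The two-sided exact permutation p of 0.0286 is the smallest that 4 against 4 arrays can give. Differences of -0.49 or lower were found for 2.9% of all probes. Within the slides the difference was -0.69 and -0.29, and scaled to E1A it was -0.26. For Dgat1 and Gpat3 the adjusted p stayed between 0.553 and 1.00 over all alternatives.

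Dgat2 (probe A_52_P592909) read 8.53, 8.85, 8.89 and 8.20 in Rap1-/-, against 9.21, 8.46, 8.71 and 9.07 in WT. The genotypes were interleaved, with WT arrays at the top and a Rap1-/- array at the bottom. The difference of -0.24 ± 0.21 (SE, 95% interval -0.73 to 0.24, limma adjusted p = 0.907) was -0.02 in the deposited values and 0.00 with quantile normalisation, -0.10 without Rap1-/- replicate 4 and -0.38 without WT replicate 2. The limma p of Dgat1 was under 0.05 before adjustment and that of Dgat2 was not, but the difference between these 2 differences was not tested.

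Mogat1 makes diacylglycerol from monoacylglycerol, a route used in liver and intestine besides the glycerol phosphate pathway. It read 0.99, 1.14, 1.10 and 1.42 in Rap1-/-, against 1.67, 1.03, 1.72 and 1.31 in WT (probe A_55_P2037428), so that 2 WT arrays were above all others and the remainder were mixed. The difference was -0.27 ± 0.17 (SE, 95% interval -0.66 to 0.13, limma adjusted p = 0.897). Pnpla3, a patatin-like protein of lipid droplets that carbohydrate feeding induces, was read by a pair of probes. Probe A_55_P2025514 read 2.84, 3.33, 2.80 and 3.36 in Rap1-/-, against 3.38, 2.81, 3.18 and 3.09 in WT, with a difference of -0.03 ± 0.18 (SE, 95% interval -0.44 to 0.38, limma adjusted p = 0.990) that was 0.03 with median scaling and 0.19 scaled to E1A. Probe A_51_P389265 read 1.75, 3.05, 1.98 and 3.87 in Rap1-/-, against 2.72, 2.99, 2.14 and 2.53 in WT. Again the 4 Rap1-/- arrays split into a low and a high pair, the same pairs as for Gpam and for the other probe and all WT readings lay between those pairs. Its difference of 0.07 ± 0.45 (SE, limma adjusted p = 0.993) had the widest interval of the 12 probes (-0.97 to 1.10) and was -0.45 and 0.59 within the slides.

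**Figure D2:**
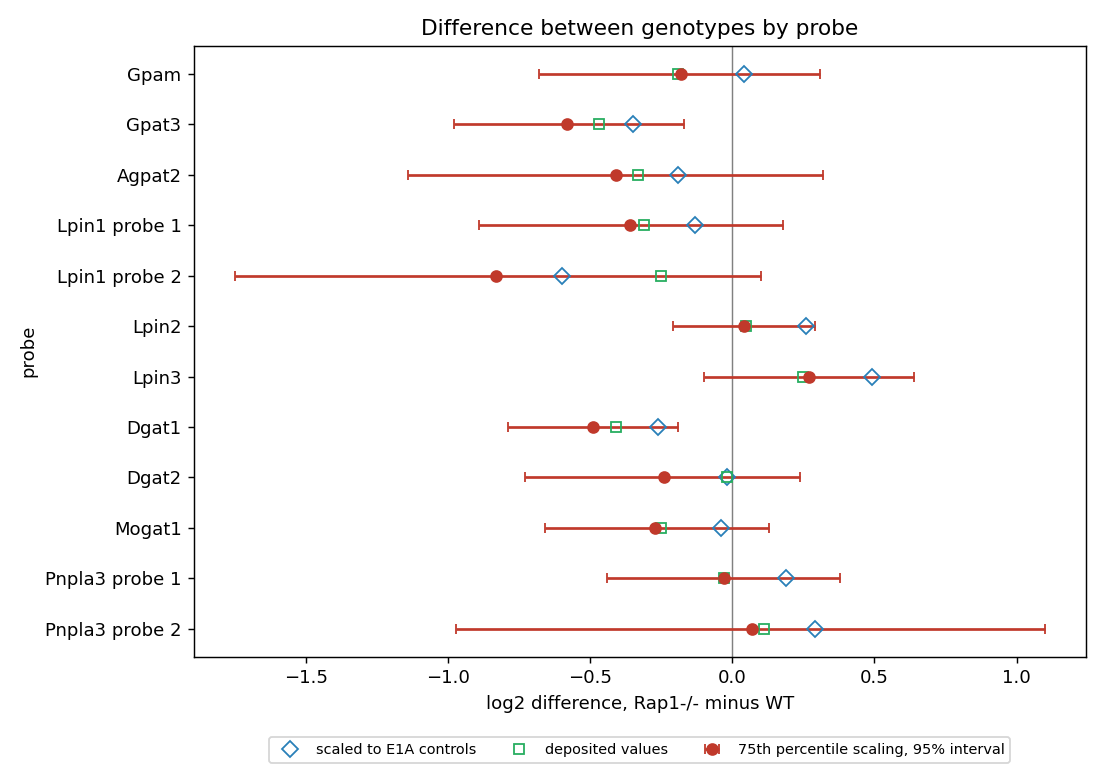
Log2 difference between Rap1-/- and WT for each member probe (horizontal axis; filled circles with bars, estimate and 95% interval after scaling to the 75th percentile; diamonds, scaled to E1A controls; squares, deposited values). The intervals of Gpat3 (-0.98 to -0.17) and Dgat1 (-0.79 to -0.19) leave out 0 before adjustment over all probes. The E1A scaling moves every probe upwards by the same amount, turning Gpam to 0.04 and the brighter probe of Pnpla3 to 0.19.

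The scale of the arrays moved all of these differences together. With E1A the median of all probes was 0.19 and that of the members -0.03, and 14.9% of all probes had a lower mean in Rap1-/-. Both scales subtract a single value per array, so every difference shifts by the same amount. The members' distance from the median of all probes is thus fixed between these scales, and no conclusion is drawn from it. In the deposited values 49.2% of all probes were lower and the members' median was -0.22. The 10 adipocyte markers were themselves lower in Rap1-/- for 9 genes and higher for 1, with a median of -0.24, and their mean per array was 7.63 to 7.87 in Rap1-/-, against 7.84 to 8.0 in WT. The median of these markers was -0.02 with E1A scaling and -0.03 in the deposited values, so their lower level depended on the scale. In bulk fat, an effect of scaling, fewer adipocytes and less RNA per adipocyte cannot be told apart. When the arrays were scaled to these markers, the members' median was -0.13, Dgat1 was at -0.36 and Gpat3 at -0.45, and 7 of 10 members were lower. On that scale the median of all probes was 0.09, and 29.4% of them were lower. Among the other cell types, all 8 mesothelium markers had a higher mean in Rap1-/- (median 0.63, Krt8 0.79, Upk1b 0.64 and Krt18 0.63, each with an adjusted p of 0.897 by limma). Their median was 0.19 within slide 1 and 1.05 within slide 2. From the genes' means, their average was -1.06 on the third WT array. It was 0.25 on the second WT array, against 0.24 and 0.14 on the first and second Rap1-/- arrays. Of 9 fibroblast and preadipocyte markers 8 were higher and 1 lower (median 0.23, Dpp4 0.51, Col1a1 0.49 and Col1a2 0.35, likewise 0.897). On either slide the Rap1-/- samples were placed at positions 3 and 4 and the WT samples at 1 and 2, and effects of placement and of genotype cannot be told apart.

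The members did not all move together over the arrays. Centred on each gene's mean, their average was -0.33, 0.05, -0.04 and -0.13 in Rap1-/-, against 0.33, -0.09, -0.03 and 0.24 in WT. The first Rap1-/- array held the lowest reading of 4 members and the last of 3, whereas the first WT array held the highest reading of 5 members. In 45 pairs of members, 30 correlated positively over the 8 arrays, 10 had an unadjusted exact permutation p under 0.05 (9 of them positive) and 0 passed after Benjamini-Hochberg adjustment. The same counts over pairs of other genes are not given. Every pair among Gpat3, Agpat2, Lpin1, Dgat1 and Dgat2, grouped with the correlations in view, was positive. Here r was 0.62 to 0.85, and 0.54 to 0.84 within genotypes. Without the 2 arrays farthest from the median of the first-named gene, r was 0.22 for Agpat2 and Dgat1. It was 0.33 for Dgat1 and Dgat2, and up to 0.92 in the other pairs of this group. Lpin2 correlated negatively with every other member, with r from -0.58 to -0.16, but the smallest unadjusted exact permutation p was 0.135. Without 2 arrays its pairs with Agpat2 (0.61), Gpam (0.13) and Mogat1 (0.16) turned positive, and the others stayed negative. The closest were Gpat3 and Dgat1 (r = 0.85, exact permutation p = 0.0065, adjusted p = 0.148). Their Spearman's rho was 0.90 (exact permutation p = 0.00456, adjusted p = 0.205), and r was 0.92 without the 2 arrays farthest from the median of Gpat3 and 0.58 within genotypes. Gpam and Pnpla3 followed (r = 0.85, exact permutation p = 0.0066, adjusted p = 0.148). Here rho was 0.74 (exact permutation p = 0.0458, adjusted p = 0.295), and r was 0.87 without 2 arrays and 0.87 within genotypes. The only negative pair at the unadjusted level was Lpin3 and Mogat1 (r = -0.65, exact permutation p = 0.0347, adjusted p = 0.173, rho = -0.38), which was -0.37 without 2 arrays and rested on those. The probes of a gene correlated at r = 0.69 for Lpin1 (rho = 0.57, exact permutation p = 0.048 and 0.151) and r = 0.60 for Pnpla3 (rho = 0.57, p = 0.118 and 0.151).

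**Figure D3:**
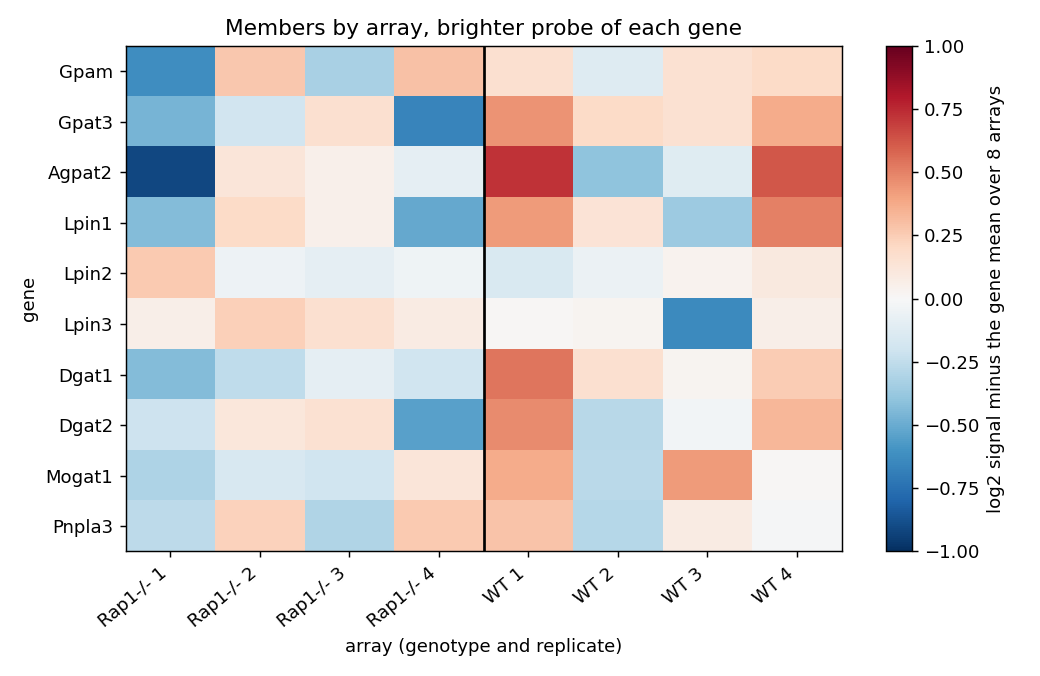
Each member by its brighter probe on each array, as log2 signal minus the gene's mean over the 8 arrays (colour; rows, genes in pathway order; columns, the 4 Rap1-/- arrays and then the 4 WT arrays). The first Rap1-/- array is low for most members and the first WT array high, with averages of -0.33 and 0.33, and the third WT array is low for Lpin3.

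Outside the list, the genes whose pattern over the 8 arrays was most like the members' average were sought among 13952 genes detected on every array. They were Mpc1, which carries pyruvate into mitochondria (r = 0.99, and 0.98 within genotypes), Haus3 (0.98 and 0.98), Emc6 (0.98 and 0.97), the respiratory complex I subunit Ndufs1 (0.98 and 0.97), Vps13c (0.98 and 0.97), the pyruvate kinase Pkm (0.98 and 0.97), Fzr1 (0.97 and 0.96) and Zswim7 (0.97 and 0.96). These values are a description of 8 arrays that share their scaling. The log2 difference was -0.45 for Mpc1 and -0.42 for Pkm.

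Other genes in and around the pathway were compared in the same fit, and 0 of the genes in these lists passed an adjusted p of 0.05 (limma), all at 0.897 or above. A list of 10 further acyltransferases was not confined to the glycerol phosphate pathway, since it also held Mogat2. Of the 10, 6 were lower and 4 higher (median -0.03). The lowest p was that of Gpat4, the other isoform of the endoplasmic reticulum, at -0.29 ± 0.10 (SE), followed by Agpat1 at -0.21 ± 0.10 and Agpat3 at -0.27 ± 0.13. Agpat5, named after its values were seen, was the 1 gene of that list without overlap, higher in Rap1-/- by 0.16. Of all probes, 0.889% had no overlap with Rap1-/- higher. Supply of glycerol 3-phosphate (6 genes, 3 lower and 3 higher, median -0.12) was led by the glycerol 3-phosphate dehydrogenases Gpd1 at -0.43 ± 0.22, Gpd2 at -0.42 ± 0.22 and Gpd1l at -0.27 ± 0.17. Acyl-CoA synthetases, which activate the fatty acids, were all 4 lower among those tested (median -0.05). Acsl6 had no named probe that passed the filter. Acsl1, the main one of adipocytes, was at -0.45 ± 0.21, Acsl4 at -0.07 ± 0.11 and Acsl5 at -0.03 ± 0.09. Other enzymes that use or make phosphatidate and diacylglycerol (phospholipid synthesis, lipid phosphate phosphatases and diacylglycerol kinases) were 4 lower and 6 higher of 10 (median 0.03). In that list Cept1, which makes phosphatidylcholine and phosphatidylethanolamine, was at -0.33 ± 0.12 without overlap, with Cds2 at -0.12 ± 0.09 and Chpt1 at -0.14 ± 0.13. The closest arrays of Cept1 read 4.05 in Rap1-/- and 4.10 in WT, and 2.27% of all probes had no overlap with Rap1-/- lower.

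Of 12 genes of fatty acid synthesis 11 were lower and 1 was higher, with a median of -0.77 beside -0.26 for the members. Me1, the malic enzyme that supplies NADPH, was at -0.94 ± 0.39 (SE), Acaca, the acetyl-CoA carboxylase, at -0.77 ± 0.32 without overlap, and Acss2, an acetyl-CoA synthetase, at -0.94 ± 0.43 (limma adjusted p = 0.897 for each). The mean of that list was lowest on the first Rap1-/- array (-1.18 from the genes' means) and highest on the first WT array (0.94), the arrays at which the members were also lowest and highest, and the list's median became -0.45 when Rap1-/- replicate 1 was left out. Lipolysis genes were 5 lower and 1 higher of 6 (median -0.12, Lipe -0.27 ± 0.12, Abhd5 -0.29 ± 0.18, Pnpla2 -0.16 ± 0.11), and lipid droplet coat genes 6 lower and 3 higher of 9 (median -0.23, Cidec -0.31 ± 0.10 without overlap, Bscl2 -0.28 ± 0.18, Fitm1 -1.57 ± 1.68 and well above background on 2 of 4 Rap1-/- arrays). The median of the coat genes was -0.05 without WT replicate 4, -0.09 without WT replicate 1, -0.14 without Rap1-/- replicate 3 and -0.15 without Rap1-/- replicate 1. Regulators of lipid synthesis were 10 lower and 1 higher of 11 (median -0.16). Cebpa was at -0.30 ± 0.11, Pparg at -0.28 ± 0.11, and Srebf1, a driver of lipogenic genes, at -0.87 ± 0.38 without overlap, with a limma adjusted p of 0.897 for each. Acaca, Cidec and Srebf1 were each the 1 gene of their list without overlap, where 2.27% of all probes had none with Rap1-/- lower. Their closest Rap1-/- and WT arrays read 8.16 and 8.19 for Acaca, 8.44 and 8.47 for Cidec, and 2.48 and 2.55 for Srebf1. With E1A scaling the medians of further acyltransferases, glycerol 3-phosphate supply, acyl-CoA synthetases, lipolysis and regulators were above 0.

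**Figure D4:**
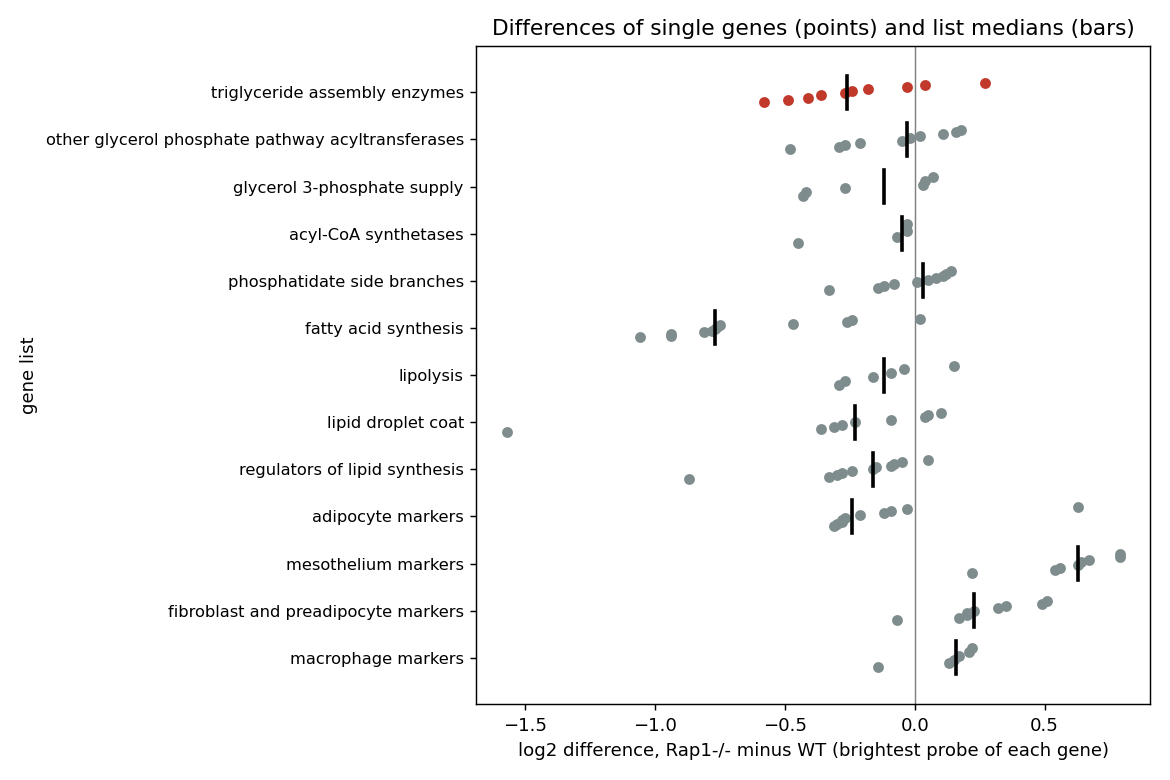
Log2 difference between Rap1-/- and WT of single genes by list (horizontal axis; points, genes by their brightest probe; black bars, list medians; red, the triglyceride assembly enzymes; grey, other lists). The enzymes' median of -0.26 lies between those of further acyltransferases (-0.03) and fatty acid synthesis (-0.77). It is near that of adipocyte markers (-0.24) on this scale, but in the deposited values the enzymes are at -0.22 and these markers at -0.03. Mesothelium markers lie at 0.63 (0.19 within slide 1 and 1.05 within slide 2). With E1A scaling the medians of further acyltransferases, glycerol 3-phosphate supply, acyl-CoA synthetases, lipolysis and regulators pass above 0.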

How the data were processed

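RNA from the gonadal white fat of 4 Rap1-/- and 4 WT mice was read by the authors on one-colour Agilent arrays, whose design used mm9. Per the file headers, Feature Extraction 10.7.3.1 quantified the images. Deposited scanner files give a processed intensity and a background intensity per spot on a linear scale without normalisation across arrays, with flags (other values, 0 or 1) that the authors' software set for spots well above background. A further deposited table holds log2 values, which normexp (offset 50) followed by quantile normalisation matched within a median of 0.0037 on each array, so the table served as an alternative. The authors' notes name limma, with no version.

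From the processed signal, log2 values minus the 75th percentile of each array were taken, spots of a probe without an outlier flag were averaged, and 13 probes lacking a value were dropped. Kept were 33982 of 55681 probes, those well above background on 4 or more of the 8 arrays. RefSeq accessions, looked up in a GRCm38.p6 gene table, named 26056 probes (46.8%). The 75th percentile was 392 to 497 intensity units on Rap1-/- arrays and 302 to 431 on WT arrays. Arrays had 59.7% to 65.2% of spots well above background and 0 saturated spots, and correlated at 0.977 to 0.992. RNA integrity was given only as a range shared by all samples, so it cannot be compared between genotypes. The number of arrays limits the precision. The comparison of genotypes used lmFit and eBayes of limma 3.58.1 (R 4.3.3), Benjamini-Hochberg adjusted over all probes kept, threshold 0.05; the fit was tested on simulated data. Permutation tests were exact and two-sided. Members, lists and markers were chosen with earlier results of these data known. Named were all members, the 3 genes of each other list with the smallest p, and the 8 genes most like the members' average. Alternatives covered scaling (median, quantile, 272 E1A spots), background correction, the deposited values, dim probes, probe choice, slide, replicate block, variance model and leaving out arrays; scaling to adipocyte markers was added after seeing the data. Figures were drawn with matplotlib 3.10.9.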

Additional observations from a re-analysis of the deposited data

Results flagged for a closer look

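In 26 groups of 4 readings (each member probe and the members' average, in either genotype), the gap between the most extreme reading and its neighbour was set against the group's range, against Dixon's limit. Chance passes this limit in about 1 in 20 groups, and 4 groups did. Gpam in WT had a low reading, on the second array, whose gap took 0.881 of the range. The dim probe of Lpin1 in WT (A_55_P2083474) had a low reading on replicate 3 (0.972 of the range). Lpin3 in WT was low on that replicate too (0.928), and its difference between genotypes was 0.10 without it. Lpin2 in Rap1-/- was high on the first array (0.858), and its difference was -0.04 without it.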

How the results depend on the processing

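Over all alternatives, 0 member probes and 0 genes of the other pathway lists passed an adjusted p of 0.05, while of all probes 2 passed with the scaling of the report, 3 with normexp, with the deposited values and with a trended, robust variance, 1 when probes were required on all 8 arrays, with 1 probe per gene, with the mean of probes and within slide 1, and 0 within slide 2. Of 271 alternative differences of member probes, 16 turned and 255 did not. The latter include differences of 0.00, which have no direction, such as those of Dgat2 and the brighter probe of Pnpla3 with quantile normalisation. With E1A scaling the members' median was -0.03 and 0 members had an unadjusted p under 0.05, as within slide 2 (0). Of 12 member probes, 0 had no overlap with median scaling (2.2% of all probes), 3 with normexp (2.68%), 5 within slide 1 (32.4%) and 3 within slide 2 (30.4%), where 2 arrays face 2. The cause of these changes was not tested.

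Directions that turned were those of small differences. The brighter probe of Pnpla3 (A_55_P2025514) was 0.03 with median scaling, 0.19 with E1A, 0.02 with the mean of probes and 0.09 scaled to adipocyte markers; the other (A_51_P389265) was -0.45 within slide 1. Gpam was 0.04 with E1A, and Lpin2 -0.01 with normexp and -0.14 within slide 2. The median of further acyltransferases was 0.03, 0.19 and 0.09 with median, E1A and adipocyte scaling, that of acyl-CoA synthetases 0.01, 0.17 and 0.07, and 0.04 within slide 2. With E1A, glycerol 3-phosphate supply was 0.10, lipolysis 0.10 and regulators 0.06. Phosphatidate side branches were -0.10 and -0.02 within the slides.

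Leaving out single arrays gave a members' median of -0.37 (without the second WT array) to -0.17 (without the first WT array), 7 to 8 lower members, 2 to 3 members with an unadjusted p under 0.05 (3 without WT replicate 2, where 8.88% of all probes had one), and 1 to 3 member probes without overlap. These were 2 without Rap1-/- replicate 1 (4.99% of all probes), Rap1-/- replicate 3 (6.28%) or WT replicate 4 (7.34%), and 3 without WT replicate 3 (5.07%). The range was -0.04 to 0.08 for Lpin2, -0.14 to 0.06 and -0.34 to 0.37 for the probes of Pnpla3 (A_55_P2025514 and A_51_P389265), -0.14 to 0.03 for further acyltransferases and -0.06 to 0.05 for phosphatidate side branches. Mogat1 ranged over -0.40 (without WT replicate 2) to -0.17 (without WT replicate 3), acyl-CoA synthetases over -0.17 to -0.02 (without WT replicates 3 and 1), and glycerol 3-phosphate supply over -0.20 to -0.08 (without Rap1-/- replicates 3 and 2). Replicate numbers did not pair the arrays: same-numbered deviations correlated at -0.21, -0.12, -0.10 and -0.15, and 0 of 8 arrays correlated best with their own number. With the replicate block 0 member probes and 2 of all probes passed.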

Other observations

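Other cell types in the fat pad were read in the same fit, with 0 genes passing an adjusted p of 0.05 (limma, all at 0.897 or above). Skeletal muscle markers were 11 lower and 1 higher of 12 (median -1.31, Tnnc2 -1.58 ± 1.77 SE), with means of -2.28 to 5.60 over the Rap1-/- arrays and 1.61 to 4.28 over the WT arrays. Myh4 and Ckm had the smallest p of that list, but were well above background on 2 and 3 of 4 Rap1-/- arrays against 4 of 4 WT arrays, so that the fitted differences (-5.60 ± 3.77 and -2.28 ± 2.19) and the lowest means of the list rest partly on readings at background. Brown fat markers were 4 lower and 2 higher of the 6 tested (median -0.29, Ppargc1a -0.31 ± 0.15, Cox8b -0.41 ± 0.42, Cidea -0.36 ± 0.39). Besides Cidec, the adipocyte markers with the smallest p were Fabp4 (-0.27 ± 0.09) and Retn (-0.28 ± 0.12). The 1 adipocyte marker with a higher mean in Rap1-/- was Lep, named after its values were seen. At 0.63 ± 0.31 it had the largest difference of that list.

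Macrophage markers were 1 lower and 5 higher of the 6 tested (median 0.16, Mrc1 0.21 ± 0.13, Itgam -0.14 ± 0.13, Lyz2 0.22 ± 0.21). Endothelial markers were 4 lower and 2 higher of 6 (median -0.03, Kdr -0.34 ± 0.16, Emcn -0.22 ± 0.15, Cldn5 0.11 ± 0.40), and lymphocyte markers 3 lower and 4 higher of the 7 tested (median 0.00, Cd79a -0.33 ± 0.16, Cd4 -0.37 ± 0.20, Ms4a1 0.46 ± 0.34). Of 8 ovary markers 3 had a named probe that passed the filter (Inha 0.28 ± 0.21, Foxl2 -0.15 ± 0.15, Star -0.04 ± 0.25). Amh, Fshr, Cyp19a1, Cyp11a1 and Zp3 had none, and whether low signal or the naming of probes left them out was not examined.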
